A study of Sus scrofa with 48 samples.

Results

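The stretch-responsive ankyrin repeat and LIM genes of skeletal muscle were described in the longissimus muscle of growing pigs. The 8 genes listed were ANKRD1, ANKRD2, ANKRD23, CSRP3, FHL1, XIRP1, TTN and MYPN, and 7 of them had a probe on the microarray, ANKRD1 under another name, out of 9527 gene symbols tested in all. Probes were taken when the array named the gene, and the ANKRD1 probes, which the array names CARP, were those that the study had listed as very important variables (VIP) for predicting feed efficiency. Probes were chosen by the scanner's flag for a signal well above background, required on 12 or more of the 48 arrays. All 16 probes passed, 15 of them on all 48 arrays and the dimmest, the CSRP3 probe O12825, on 44. The 16 probes were 2 for ANKRD1, 2 for ANKRD2, 1 for ANKRD23, 3 for CSRP3, 4 for XIRP1, 2 for TTN and 2 for MYPN. FHL1 had no probe by name. The array carries 16 probes called FHL1C, which the gene table of RefSeq names FHL1, and their values are given beside those of the other genes as a choice made after the files had been seen.

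Each of the 48 arrays held the muscle RNA of 1 pig. The pigs came from 2 lines of Large White pigs divergently selected for residual feed intake (RFI), the difference between the feed a pig eats and the feed predicted from its growth and fatness. There were 12 pigs in each of 4 groups, low RFI on the HF diet, high RFI on the HF diet, low RFI on the LF diet and high RFI on the LF diet, where HF stands for high fat and high fiber and LF for low fat and low fiber. All were barrows with free access to feed, taken after several generations of selection, and their age is not given in the sources used here. The values are spot intensities turned into log2 and centred by subtracting the array mean of all tested probes, so that a centred log2 level of 0 is the mean probe and 1 unit is a doubling.

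Each of the 6 slides held 2 arrays of every group, and scanning took 2 days. The share of probes well above background ranged over the arrays from 59.2% to 74.2%. The 6 defining markers of skeletal muscle that were measured (ACTA1, CKM, MYH1, MYLPF, TNNT3 and DES) were well above background on all 48 arrays, with mean centred log2 levels from 9.37 to 10.69. Blood cell and macrophage markers were present at lower levels. Of 5 macrophage markers 3 were higher in the high RFI line, where 6.57% of all tested probes were higher. One of these, CSF1R, was well above background on 35 of the 48 arrays. In samples of whole muscle, fewer cells of a type and less RNA per cell cannot be told apart.

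Titin spans each half-sarcomere from the Z-disc to the M-band as a giant elastic protein, and it serves as a scaffold on which strain sensors sit. ANKRD1 (also called CARP), ANKRD2 and ANKRD23 form the family of muscle ankyrin repeat proteins, which bind the N2A region of titin and can also be found in the nucleus. Their transcripts are known to rise when muscle is stretched, damaged or overloaded, and ANKRD1 is a classical target of the mechanosensitive coactivators YAP and TAZ. Myopalladin, from MYPN, anchors the same proteins at the Z-disc, muscle LIM protein from CSRP3 and FHL1 are LIM domain proteins of the sarcomere, and Xin, from XIRP1, binds actin and gathers where fibers are damaged.

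The probes differ in what they can tell, which is why some of their sequences are shown here. Each probe has 60 bases, of which 30 are printed, 5′ to 3′. The probes of ANKRD1 start at bases 1859 and 3373 of its transcript and share no run of 20 bases, so that they are separate measurements of 1 gene.
A_72_P003736: aagcatcatctgagcttcaaaaatatcatt
A_72_P366633: cttgccatttagtgtctagggactagggat

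XIRP1 has a pair of probes shifted by 1 base, which are close to repeats of 1 measurement. Capitals mark the run of 59 bases that they share.
O13155: tCTGCCCCTCAAAAGGGAAGGACACGGTCT
A_72_P262812: CTGCCCCTCAAAAGGGAAGGACACGGTCTG

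In CSRP3, the dim probe O12825 runs in the opposite orientation to A_72_P443954 over 50 bases. Capitals mark the complementary stretch, bases 1 to 30 of the first and from base 21 of the second.
A_72_P443954: GGGAAGAGTCTAGAATCCACAAACGTCACT
O12825: AGTGACGTTTGTGGATTCTAGACTCTTCCC

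The pair of TTN probes share no run of 20 bases, and they are shown because their values went opposite ways.
A_72_P356223: tgtttatacctgcgtagctatcaatgaggt
O14051: atagttcttgaagaggaagttctaccagag

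The main probe of a gene was taken as the one with the highest mean level. Over the 48 pigs, after subtraction of group means, the other probes followed the main probe with r = 0.99 in ANKRD1, 0.99 in ANKRD2, 0.87 in MYPN, 0.983 and 0.997 in CSRP3, and 0.860 to 0.999 in XIRP1. The CSRP3 probe of opposite orientation was the one at 0.983. In TTN, the probes correlated with r = -0.27, so that O14051 does not follow the main titin probe. The genes whose levels were most like that of O14051 were ZBTB26 (r = 0.85), HOXD3 (0.77) and WNT4 (0.76), none of them a gene of the sarcomere. Those most like the main TTN probe were DNAJC21 (0.72), LSM12 (0.71) and TMPO (0.70), which are not genes of the sarcomere either. The genes most alike therefore do not tell which of these probes measures titin.

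The genes fell apart first by how much they differed between pigs of the same group. ANKRD1 varied most. In the low RFI line its centred log2 level on the HF diet was -0.17 at the lowest, 3.31 at the median and 5.13 at the highest, and in the high RFI line on that diet it was 0.76, 3.80 and 4.75. On the LF diet the lowest, median and highest levels were 0.88, 3.17 and 5.67 in low RFI pigs and 1.65, 3.28 and 5.86 in high RFI pigs. All 4 groups overlapped over most of their range, and the highest pig had 65.5 times the signal of the lowest. The standard deviation (SD) within groups was 1.33, larger than that of 99.3% of all tested probes and of 99.8% of the 1001 probes nearest to it in mean level. The median SD of all tested probes was 0.26.

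CSRP3 followed with an SD of 1.13 and a 28.5-fold range, and ANKRD2 had an SD of 0.78 and a 10.5-fold range. CSRP3 was lowest at 2.87 in 1 HF-fed pig of the high RFI line and highest at 7.70 in 1 LF-fed pig of the low RFI line. ANKRD2, which is known for its expression in slow fibers, ran from 2.65 to 6.04, both ends being LF-fed pigs of the low RFI line. XIRP1 had an SD of 0.76 and a 7.58-fold range, and ANKRD23 one of 0.53 and an 8.26-fold range. These 5 genes had a larger SD than 87.1% or more of the tested probes, and than 97.3% or more of the probes of like level.

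The structural partners varied less at their main probes. TTN had an SD of 0.13 and a 1.71-fold range between the lowest and the highest pig, both lines included. Of the probes of like level, 19.98% had a smaller SD. The other TTN probe, O14051, had an SD of 1.315, larger than that of 99.3% of the tested probes. MYPN had an SD of 0.18 and a 1.70-fold range, and 20.7% of the tested probes had a smaller SD. Among the probes of like level this share was 51%, so that MYPN was near the middle of them. The main FHL1C probe had an SD of 0.23 and a 2.03-fold range. This SD was above that of 91.0% of the probes of like level, since bright probes vary less. The other 15 FHL1C probes had SDs from 0.22 to 0.47 and ranges of up to 4.16-fold.

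**Figure D1:**
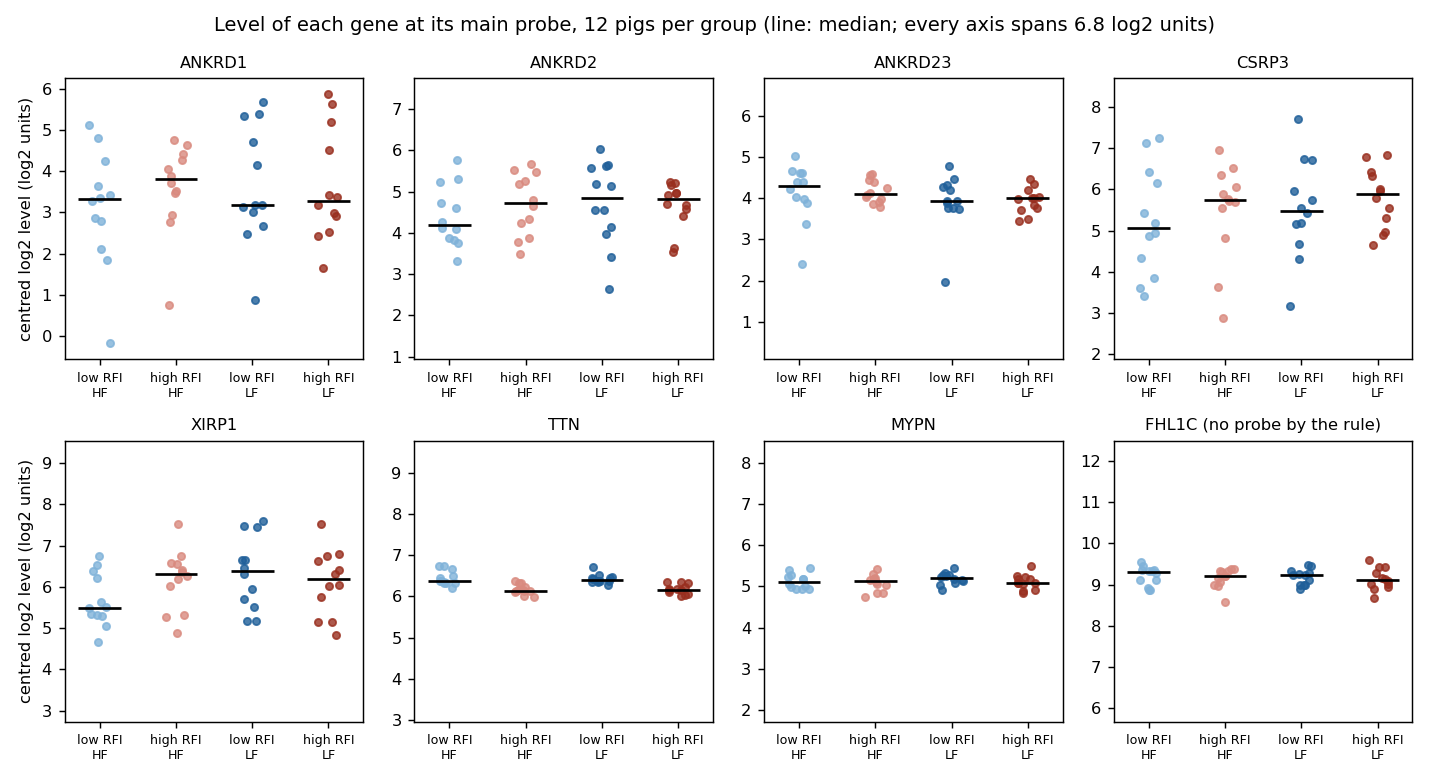
Centred log2 level (log2 units, vertical axis) of each gene at its main probe in every pig (points) of the 4 groups of 12 (horizontal axis), with the group median as a bar. All axes span the same number of log2 units, so that the scatter of ANKRD1 (SD 1.33) and CSRP3 (SD 1.13) can be set beside that of TTN (SD 0.13) and MYPN (SD 0.18).

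**Figure D2:**
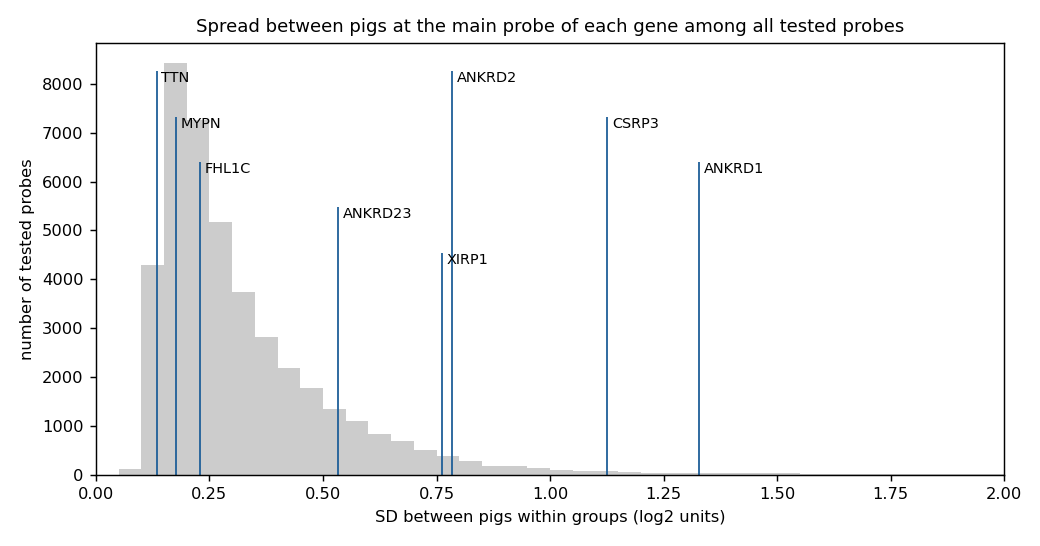
Number of the 42125 tested probes (vertical axis) by the SD between pigs within groups (log2 units, horizontal axis), with the main probe of each gene as a labelled line. TTN, MYPN and FHL1C lie in the bulk of the probes, and ANKRD23, XIRP1, ANKRD2, CSRP3 and ANKRD1 lie to the right of it.

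Whether lines or diets differed in this spread was tested on the absolute deviation of each pig from its group median. The mean deviation was smaller in the high than in the low RFI line for 6 of 7 genes, MYPN being the exception. None of the 14 comparisons passed after adjustment (two-sided permutation tests within diets or lines, 100000 permutations, smallest adjusted p = 0.686), and 1 had an unadjusted p under 0.05. That was ANKRD23, with a mean deviation of 0.23 in high RFI and 0.45 in low RFI pigs (p = 0.049, adjusted p = 0.686). The low RFI line held the lowest pigs of this gene, at 1.98 on the LF diet and 2.40 on the HF diet, whereas the next lowest pig was at 3.37. Both of these lowest pigs were on the same slide, scanned on the second day, and the part of the slide was not tested. Without these 2 pigs, the deviations were 0.23 and 0.31 (permutation test, p = 0.24).

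The levels of the genes were then compared between the lines, the question the selection experiment was set up for. Of the 14 probes other than those of ANKRD1, 1 differed between the lines (limma, Benjamini-Hochberg adjusted p under 0.05) and it was lower in the high RFI line, where 16.4% of all tested probes differed, 9.85% being lower and 6.57% higher. It was the main probe of TTN, at 6.44 ± 0.15 (SD, n = 24) in low RFI and 6.17 ± 0.12 (SD, n = 24) in high RFI pigs. In low RFI pigs TTN was 6.21 at the lowest, 6.38 at the median and 6.75 at the highest, and in high RFI pigs it was 5.98, 6.15 and 6.38. The lines overlapped in part. Of the 24 high RFI pigs 16 were below every low RFI pig, and 13 of the 24 low RFI pigs were above every high RFI pig.

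The high minus low RFI difference of TTN was -0.26 on the log2 scale (standard error 0.04, 95% confidence interval -0.35 to -0.18, limma adjusted p = 1.42e-05), a ratio of 0.832. It was -0.28 on the HF diet (adjusted p = 0.00377, limma) and -0.25 on the LF diet (adjusted p = 0.0102, limma), where TTN was again the only one of the 14 probes called, and where 6.39% and 2.47% of all tested probes were called. The difference was below 0 on each of the 6 slides, from -0.42 to -0.18, and it was -0.20 on the first and -0.33 on the second scan day. The share of probes well above background was 65.6% ± 3.97 (SD, n = 24) in low and 66.9% ± 3.67 (SD, n = 24) in high RFI arrays.

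The second TTN probe, O14051, pointed the other way without passing the test. It was 1.91 at the lowest, 2.84 at the median and 5.28 at the highest in low RFI pigs, and 1.82, 3.22 and 8.00 in high RFI pigs, a difference of 0.75 (standard error 0.37, 95% confidence interval 0.01 to 1.49, limma adjusted p = 0.155). The array also holds 7 tested probes of titin sequences under other names, which were looked up after the files had been seen. Of these, 5 were lower in the high RFI line (limma adjusted p from 5.24e-05 to 0.0424), by 0.12 to 0.34 on the log2 scale, and they include 2 of identical sequence and 2 that share 45 bases. The other two, A_72_P234037 and A_72_P669585, had differences of -0.04 and 0.09 (limma adjusted p = 0.755 and 0.782). The 5 called probes correlated with the main TTN probe with r from 0.16 to 0.60, and the other two with r of 0.17 and -0.08.

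Of the strain-responsive genes, ANKRD2, ANKRD23, CSRP3 and XIRP1 had no probe called between the lines. For ANKRD1 the authors chose the probes on feed efficiency traits of pigs that include these, so that its line difference is given with no test. The main probe was 3.38 ± 1.42 (SD, n = 24) in low RFI and 3.62 ± 1.20 (SD, n = 24) in high RFI pigs, a difference of 0.24, and the other probe differed by 0.17. ANKRD2, the slow fiber member of the family, differed by 0.12 (95% confidence interval -0.32 to 0.56, limma adjusted p = 0.750), and ANKRD23, the member linked to energy metabolism, by 0.03 (-0.28 to 0.33, adjusted p = 0.927). CSRP3 differed by 0.27 (95% confidence interval -0.37 to 0.90, limma adjusted p = 0.602) and XIRP1 by 0.13 (-0.30 to 0.56, adjusted p = 0.713).

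These intervals are wide because the pigs of a group differ so much, and a difference as large as that of TTN lies inside those of ANKRD2, ANKRD23, CSRP3 and XIRP1. The interval of MYPN was narrower, from -0.17 to 0.04 around a difference of -0.07 (limma adjusted p = 0.407), and does not hold the value of TTN. MYPN was 5.16 ± 0.16 (SD, n = 24) in low RFI and 5.10 ± 0.18 (SD, n = 24) in high RFI pigs. None of the 16 FHL1C probes differed (limma, smallest adjusted p = 0.567, 0 with an unadjusted p under 0.05), with 9.20 ± 0.21 (SD, n = 24) in low and 9.15 ± 0.24 (SD, n = 24) in high RFI pigs at the main probe.

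**Figure D3:**
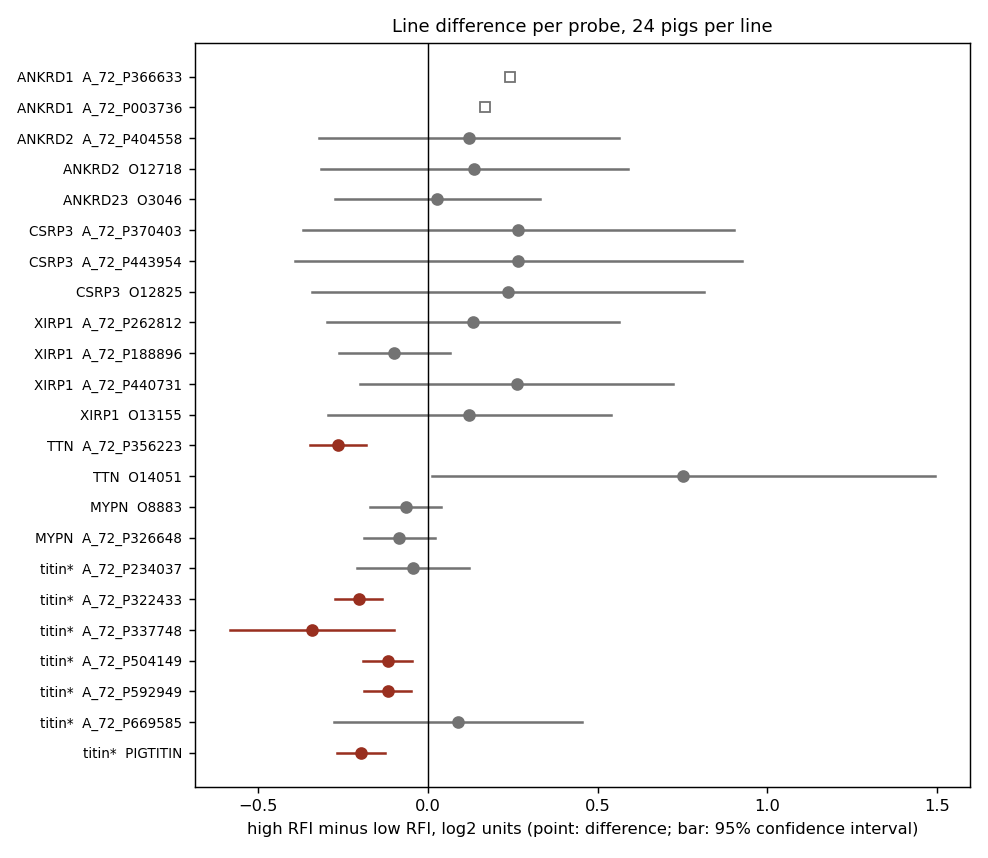
Difference between the lines (high RFI minus low RFI, log2 units, horizontal axis) at the 16 probes and at 7 titin probes named otherwise (titin*), over 24 pigs per line. Points are differences and bars 95% confidence intervals, red where the limma adjusted p is under 0.05, and the open squares of ANKRD1 have no interval because these probes were chosen on traits of the pigs. The main TTN probe and 6 of the 7 other titin probes lie below 0, of which 5 are called, with O14051 at 0.75 on the other side.

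The diets did not separate these genes. None of the 16 probes differed between the HF and LF diet (limma, smallest adjusted p = 0.576), none had an unadjusted p under 0.05, and 0.42% of all tested probes differed. Within the low RFI line 0 of 16 probes and 0.199% of all probes were called, and within the high RFI line 0 of 16 and 0% of all. The difference of HF minus LF was -0.29 for ANKRD1 (95% confidence interval -1.04 to 0.46, limma adjusted p = 0.823) and 0.22 for ANKRD23 (-0.08 to 0.52, adjusted p = 0.581). It was -0.31 for CSRP3 (-0.95 to 0.33, limma adjusted p = 0.753).

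XIRP1 came nearest to a dependence on both factors, and did not pass. At its main probe, low RFI pigs were at 5.68 ± 0.64 (SD, n = 12) on the HF diet and 6.34 ± 0.87 (SD, n = 12) on the LF diet, while high RFI pigs were at 6.17 ± 0.73 (SD, n = 12) and 6.11 ± 0.79 (SD, n = 12). Among low RFI pigs the HF minus LF difference was -0.66, with an unadjusted p of 0.0351 and an adjusted p of 0.381 (limma). There 3 of the 4 XIRP1 probes had an unadjusted p under 0.05, as did 4902 of all 42125 tested probes. These 3 include the pair that shares 59 bases, close to repeats of 1 measurement. No line by diet interaction was called among the 16 probes or among all tested probes (0%), with 1 of 16 and 1875 of 42125 at an unadjusted p under 0.05. The 1 probe was A_72_P440731 of XIRP1, with an interaction of 0.94 (standard error 0.46, limma adjusted p = 0.999).

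Since the groups differed little and the pigs much, it was asked which of the genes were high in the same pigs. Correlations were computed over the 48 pigs after subtraction of group means, for the 21 pairs of main probes. Of these, 2 passed after adjustment by Pearson's r (two-sided permutation tests within groups, Benjamini-Hochberg over 21 pairs). They paired ANKRD1 with XIRP1 and ANKRD2 with CSRP3. All 48 arrays share slides and centring, and the values within lines and days are given for that reason.

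ANKRD1 and XIRP1 correlated with r = 0.68 and rho = 0.66 (n = 48, permutation p = 1e-05 for both, the smallest p the permutations can give, adjusted p = 0.00021). Without the 2 pigs farthest from the median of ANKRD1 r was 0.65. It was 0.74 in the low and 0.62 in the high RFI line, 0.67 and 0.69 on the scan days, and 0.65 after subtraction of slide means. On the HF diet r was 0.59 and on the LF diet 0.75.

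ANKRD2 and CSRP3 correlated with r = 0.65 and rho = 0.67 (n = 48, permutation p = 2e-05 for both, adjusted p = 0.00021). Without the 2 pigs farthest from the median of ANKRD2 r was 0.71. It was 0.65 in the low and 0.66 in the high RFI line, 0.64 and 0.65 on the scan days, and 0.75 after subtraction of slide means.

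Across these pairs the correlations were small. ANKRD1 had r = -0.0033 with ANKRD2 (permutation p = 0.984, adjusted p = 0.984) and 0.06 with CSRP3 (adjusted p = 0.924 by permutation). XIRP1 had r = 0.11 with ANKRD2 and 0.14 with CSRP3 (permutation tests, adjusted p = 0.768 for both). By diet these values were less alike, which was not tested. On the HF and LF diet ANKRD1 had r of 0.32 and -0.26 with ANKRD2, and 0.13 and -0.02 with CSRP3. XIRP1 had 0.41 and -0.10 with ANKRD2, and 0.33 and -0.04 with CSRP3. TTN and MYPN passed with none of the other genes, and their own r was 0.04 (permutation adjusted p = 0.936).

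ANKRD23 took a middle place. By rank it went with XIRP1 (rho = 0.46, permutation p = 0.00128, adjusted p = 0.00896) and with ANKRD1 (rho = 0.43, p = 0.00288, adjusted p = 0.0151), while Pearson's r was 0.31 (p = 0.0302, adjusted p = 0.211) and 0.28 (p = 0.0748, adjusted p = 0.262). The 2 low RFI pigs with very low ANKRD23, which were on the same slide, set this apart. Without them r was 0.54 with XIRP1 and 0.55 with ANKRD1 over 46 pigs (permutation tests, adjusted p = 0.000892 for both), an alternative chosen after the data were seen. With ANKRD2 and CSRP3 ANKRD23 then had r = 0.09 and 0.01 (permutation adjusted p = 0.855 and 0.979).

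FHL1C was nearest to CSRP3, with r = 0.70, followed by 0.46 with XIRP1 and 0.42 with ANKRD2, and -0.25 with TTN. These values are given as a description because the probes were added after the files had been seen.

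**Figure D4:**
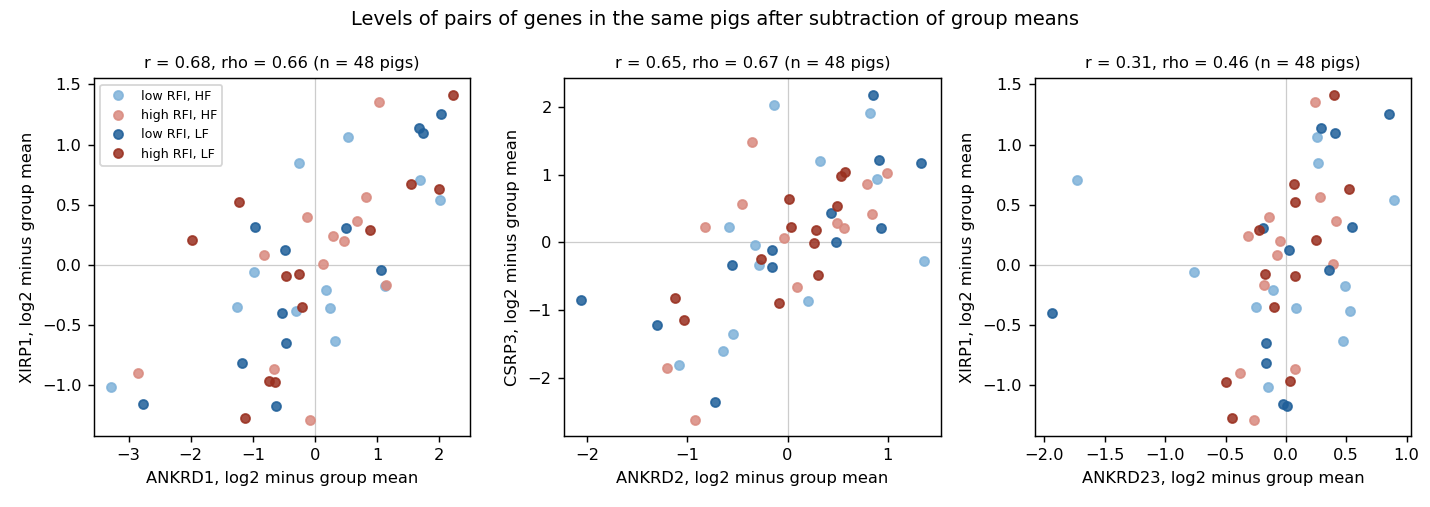
Log2 level minus the group mean of both genes of a pair in the same 48 pigs (points coloured by group), for ANKRD1 and XIRP1, ANKRD2 and CSRP3, and ANKRD23 and XIRP1. The first pairs spread along a diagonal with r = 0.68 and 0.65, while in the third panel 2 low RFI pigs lie far to the left of the others.

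**Figure D5:**
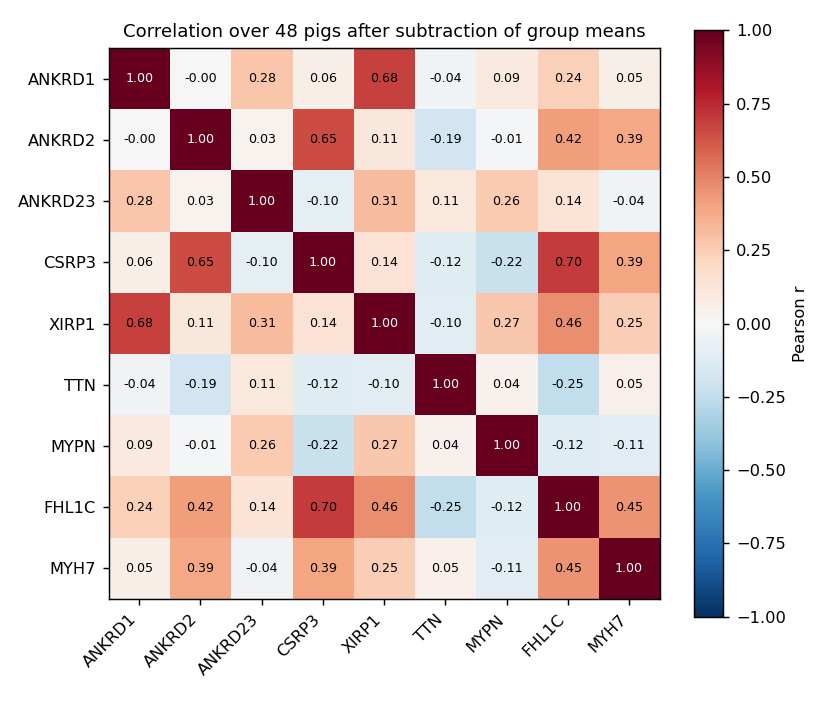
Pearson r over 48 pigs after subtraction of group means between the main probes of the 7 genes, FHL1C and MYH7 (rows and columns). ANKRD1 with XIRP1 (0.68), ANKRD2 with CSRP3 (0.65) and CSRP3 with FHL1C (0.70) are the highest values off the diagonal.

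Fiber type was set beside these genes through MYH7, the myosin heavy chain of slow fibers. ANKRD2 correlated with MYH7 with r = 0.39 and rho = 0.38 (n = 48, permutation p = 0.0106 and 0.0126, adjusted p = 0.0371 and 0.0441 over 7 genes). CSRP3 did so with r = 0.39 and rho = 0.40 (permutation p = 0.0104 and 0.00821, adjusted p = 0.0371 and 0.0441). Without the 2 farthest pigs, r was 0.34 for ANKRD2 and 0.38 for CSRP3. The values were 0.33 and 0.48 in the low and high RFI line for ANKRD2, and 0.34 and 0.46 for CSRP3. ANKRD1 had r = 0.05 with MYH7 (permutation adjusted p = 0.806), ANKRD23 -0.04 (0.806) and XIRP1 0.25 (0.230). For these genes r differed by line and diet, which was not tested. In low and high RFI pigs ANKRD1 had -0.15 and 0.29, ANKRD23 -0.31 and 0.58, and XIRP1 0.04 and 0.45. On the HF and LF diet ANKRD1 had 0.34 and -0.28, ANKRD23 0.03 and -0.13, and XIRP1 0.56 and -0.07.

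Of 11 slow fiber genes measured, 7 had r of 0.5 or more with ANKRD2, where 0.508% of all complete tested probes did. They were PLN, the calcium pump inhibitor phospholamban (r = 0.76), MYOZ2, a Z-disc protein that binds calcineurin (0.65), the troponins TNNT1 (0.60) and TNNI1 (0.58), the calcium pump ATP2A2 (0.54), the slow light chain MYL2 (0.53) and tropomyosin TPM3 (0.53). Without the 2 pigs farthest from the median of ANKRD2, r was 0.69 for PLN, 0.58 for MYOZ2 and 0.53 for TNNT1. The others of these genes then fell below 0.5, TNNI1 to 0.49, MYL2 to 0.47, TPM3 to 0.45 and ATP2A2 to 0.42. With CSRP3, 1 of 11 reached 0.5, MYOZ2 with r = 0.59, where 0.298% of all probes did. ANKRD1 and XIRP1 had none of the 11 at 0.5. The mean level of the slow fiber genes had r = 0.59 with ANKRD2, 0.50 with CSRP3, 0.02 with ANKRD1 and 0.17 with XIRP1. The part of slow fiber content in the pair of ANKRD2 and CSRP3 was not tested.

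ANKRD1 and XIRP1 kept other company. The 10 genes most like ANKRD1 over the 48 pigs, of 41957 complete probes, were MYC (r = 0.78), BTG2 (0.76), OTUD1 (0.75), FLNC (0.71), CSRNP1 (0.69), CYR61 (0.69), STC2 (0.68), XIRP1 (0.68), PDLIM3 (0.68) and PNMT (0.67). MYC is a transcription factor of growth control, BTG2 and CSRNP1 are early response genes, and CYR61, also called CCN1, is a secreted matrix protein and a target of YAP. FLNC is filamin C, a crosslinker of actin at the Z-disc, and PDLIM3 binds alpha-actinin there. At the main probes of these genes r was lower, 0.58 for FLNC and 0.38 for PDLIM3. All 10 kept r of 0.62 or more without the 2 pigs farthest from the median of ANKRD1, the lowest being PDLIM3. In all, 0.675% of the probes had r of 0.5 or more with ANKRD1 and 0.193% had r of -0.5 or less.

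In the list of YAP, TEAD and SRF genes, 26 names were measured, CTGF and CCN2 being the same gene, and 4 of them had r of 0.5 or more with ANKRD1 at their main probe and none -0.5 or less. They were MYC (0.77), CYR61 (0.68), the stress-induced factor ATF3 (0.63) and the early response factor FOS (0.55). CTGF, the other classical secreted target of YAP, had 0.37 and CCN2 0.42, while the cofactors YAP1 and WWTR1 (TAZ) had 0.0042 and 0.21. The median r of the list was 0.12, against 0.0041 over all probes. In the list of titin and Z-disc partners, 2 of 31 reached 0.5 with ANKRD1, filamin C (0.58 at its main probe) and the co-chaperone BAG3 (0.58), which clears damaged filamin.

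XIRP1 was most like TNFRSF12A, the receptor Fn14 (r = 0.79), YWHAH (0.78), a 14-3-3 protein, and AMD1 (0.77), an enzyme of polyamine synthesis. Among the titin and Z-disc partners, 6 of 31 had r of 0.5 or more with XIRP1, where 1.12% of all probes did. These were FLNC (0.76), BAG3 (0.75), SYNPO2L (0.62), KLHL41 (0.62), NRAP (0.54) and CRYAB (0.53). Without the 2 pigs farthest from the median of XIRP1, NRAP had 0.49 and CRYAB 0.44, and the others kept 0.54 or more. In the list of YAP, TEAD and SRF genes, 2 of 26 did so, MYC (0.73) and ATF3 (0.73).

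CSRP3 was most like HSPB7, a small heat shock protein of muscle (r = 0.73), FHL1 through an FHL1C probe (0.70) and ANKRD2 (0.69). ANKRD2 was most like PLN (0.77), LMCD1 (0.75), a LIM domain protein, and PPP4C (0.70), a phosphatase subunit. MYH7 was among the 10 most like it, through another of its probes than the main one, with r = 0.64. TTN was most like DNAJC21 (0.72), LSM12 (0.71) and TMPO (0.70), and MYPN most like CRKL (0.77), RANBP10 (0.75) and KPNA1 (0.75).

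ANKRD23 was most like 3 aminoacyl-tRNA synthetases, enzymes that load amino acids on their tRNA, which were SARS (r = 0.69), AARS (0.64) and EPRS (0.64, and 0.42 at its main probe). A list of the 20 cytosolic synthetases was drawn up after this had been seen, and is therefore a description. All 20 were measured and had r above 0 at their main probe, with a median of 0.39 against 0.03 over all probes. In 7 of them r was 0.5 or more, where 0.236% of all probes did, and the same list had none at 0.5 with ANKRD1, ANKRD2, CSRP3, XIRP1, TTN or MYPN. Without the 2 pigs farthest from the median of ANKRD23, 8 reached 0.5, and SARS had 0.61 and AARS 0.68. KARS then fell from 0.25 to -0.03 and VARS from 0.27 to 0.02, while CARS rose from 0.05 to 0.33.

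The lists were also compared between the lines, where 16.4% of all tested probes were called, 9.85% lower and 6.57% higher in the high RFI line. Counts near these shares are no result about a list. Of 31 titin and Z-disc partners, 7 passed the line test at their main probes (limma adjusted p under 0.05), all of them lower with high RFI. The median difference at the main probes was -0.11, against -0.03 over all tested probes. With every tested probe of these genes taken, 16 of 164 were called, a smaller share than the 16.4% over all tested probes. The largest were CAPN3, the muscle calpain that binds titin, at -0.50 (standard error 0.12, adjusted p = 0.00258 by limma), NRAP, a chaperone of actin assembly, at -0.35 (adjusted p = 0.00623), PDLIM5 at -0.22 (adjusted p = 0.0344) and LDB3, the Z-disc protein ZASP, at -0.21 (adjusted p = 0.00121). MYOM2, a protein of the M-band, and MYOZ3, a calcineurin-binding protein of the Z-disc, were also among those called.

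Of 13 fast fiber genes, 4 passed, each lower with high RFI, where 9.85% of all tested probes were lower. They were ATP2A1 (-0.19, limma adjusted p = 0.0167), TNNI2 (-0.15), CASQ1 (-0.13) and MYH2 (-0.12). Of 11 slow fiber genes, 1 was higher, CASQ2 by 0.72 (limma adjusted p = 0.00601). The median differences were -0.11 for the fast and -0.02 for the slow list.

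Of 26 YAP, TEAD and SRF names, 5 passed, 2 with the higher level in high RFI pigs, a share near the 16.4% called over all tested probes. MYC was higher by 0.53 (limma adjusted p = 0.0201) and WWTR1 by 0.25 (adjusted p = 0.0084), while AMOTL2, a regulator of YAP, fell by 1.06, the kinase LATS1 by 0.33 and TEAD1 by 0.15. CYR61 differed by 0.52 and FOS by 0.996 without passing (limma adjusted p = 0.144 and 0.160). Of 13 regeneration and denervation genes, 4 were higher and 1 lower, against 6.57% and 9.85% of all tested probes, and embryonic myosin MYH3 was higher by 1.24 (limma adjusted p = 0.00906), the acetylcholine receptor subunit CHRNA1 by 0.78, the cell cycle inhibitor CDKN1A by 0.52 and MYOD1 by 0.39. The one lower gene, SLN, fell by 0.11. None of these lists held a gene called for the diet or for the interaction.

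Markers of other cells moved with the lines as well, and their part in the TTN difference was not tested. Higher in the high RFI line were 3 of 5 macrophage markers (LYZ by 1.5, CSF1R by 0.94, CD14 by 0.30), 2 of 7 connective tissue markers (COL1A1 by 0.37, COL1A2 by 0.32), 1 of 7 adipocyte markers (FABP4 by 0.32), 1 of 2 tendon markers (COMP by 0.45) and 1 of 5 endothelial markers (TEK by 0.24), all with a limma adjusted p under 0.05, where 6.57% of all tested probes were higher. A count of 1 in such a short list is given as a value only. None of 4 smooth muscle or 3 blood cell markers did. The mean level of the macrophage markers ran from -2.86 to -1.04 in low RFI pigs and from -2.17 to 0.92 in high RFI pigs, over both diets. Within groups this mean level had r = -0.52 with TTN, -0.41 with MYPN and -0.35 with ANKRD23. With ANKRD1 it had 0.04, with XIRP1 -0.03, with CSRP3 0.15 and with ANKRD2 -0.0038. The 6 defining markers of skeletal muscle all had negative differences at their main probes, the same direction as TTN, from -0.14 to -0.06 with a median of -0.09. None of the 6 was called there (limma adjusted p from 0.0692 to 0.376), while 12 of their 50 probes were called, and their part in the TTN difference was not tested either. CD68 and CSF1R were well above background on 28 and 35 of the 48 arrays.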

How the data were processed

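RNA of 48 longissimus muscle samples was hybridised on a one-colour 60 K microarray, 1 array per pig. The authors deposited scanner spot intensities, background-subtracted and detrended within each array by the Agilent scanner software, together with a table in log2 units. Set against the scanner files, that table is the logarithm of the median signal less the array's own median, over 34472 probes (R 2.10.0 in the submitters' processing notes). The genome build is not given in the sources used here.

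Outlier spots were left out, spots of a probe averaged, and log2 processed signals centred by subtracting the array mean of the 42125 probes that passed the background flag on 12 or more arrays. The 4 group means were fitted with limma 3.58.1 (R 4.3.3), with Benjamini-Hochberg adjustment over all tested probes at 0.05. P-values take the pig as the unit and set differences or correlations against the variation between pigs. Correlations and spreads used 100000 permutations (Python 3.11.15, numpy 2.4.6). Of all probes 39.8% had a gene symbol. The fits were tested on simulated data. The genes named were the members, MYH7, up to 4 called genes per list and contrast, the 10 genes most like ANKRD1 and 3 for each other member, with further list genes named after their values were seen. Members and lists were chosen with earlier results of these data known. 1 called gene of the lists is not reported here. The number of arrays limits the precision.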

Additional observations from a re-analysis of the deposited data

How the results depend on the processing

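Alternatives changed the scaling, background correction, probe filter, outlier spots, slide or scan day as a block, the probe of a gene, or used the deposited table. Of 860 alternative values none changed sign against a call. The TTN difference ran from -0.27 to -0.20 (limma adjusted p from 4.26e-06 to 0.00139). An ordinary variance analysis without adjustment called 2 of the 14 probes instead of 1. Taking every kept probe of the lists gave 117 of 605 line calls, against 30 of 133 at main probes and 16.4% of all tested probes. Genes on more than 1 list are counted in each. The lists did not move alike. Titin and Z-disc partners had 16 of 164 called instead of 7 of 31, and fast fiber genes 32 of 75 instead of 4 of 13. With the deposited values, 1 gene instead of 2 passed with MYH7, CSRP3 missing the threshold (r = 0.36, permutation adjusted p = 0.0768). Without the 2 pigs lowest in ANKRD23, chosen after seeing the data, 4 pairs instead of 2 passed. With slide means subtracted, CSRP3 and MYPN passed too (r = -0.41, permutation adjusted p = 0.0377). Over all probes, line calls fell from 6919 to 3874 with no filter on dim probes, and diet calls ranged from 0 to 359 around 177; the cause was not tested. Probes near background, such as O12825, limit what can be read from low signals. No paired analysis was possible because the replicate numbers only name the pigs.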
